A study of Mus musculus with 8 samples.

Results

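The subject was 8 genes of the mouse cell death machinery, picked by gene symbol from the deposited count table of 55401 genes. They comprised 2 inflammatory caspases (Casp1, Casp4), 3 initiator caspases (Casp2, Casp8, Casp9), the executioner Casp6, the death receptor adaptor Fadd and the Casp8 inhibitor Cflar. All 8 were found, and all 8 passed the filter on low counts that kept 27573 genes. The RNA came from haematopoietic stem cells (HSCs), the bone marrow cells that renew themselves and form all blood lineages. About 3000 cells per sample were sorted from C57BL/6 mice aged 8 weeks, and total RNA was turned into cDNA and sequenced. The 4 Nynrin CKO libraries came from Nynrin fl/fl Tie2-Cre mice, in which Cre removes floxed Nynrin wherever the Tie2 promoter has been active, which includes blood cells and endothelium. The 4 control libraries, labelled wild type, came from Nynrin fl/fl mice without Cre. Both groups therefore carried the floxed alleles, Cre was present in Nynrin CKO only, and the effect of Cre and that of Nynrin loss cannot be told apart. The series title places Nynrin in HSC function and mitochondrial pore opening, and the comparison gives the levels of the caspase genes with and without the gene.

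Caspases are proteases that wait in the cell as inactive precursors and are switched on by clustering or by cleavage. Death receptors at the cell surface recruit the adaptor Fadd, which brings Casp8 molecules together; the product of Cflar, an inactive relative of Casp8, joins the same complex and limits its activity. Damage inside the cell releases cytochrome c from mitochondria, which assembles Apaf1 with Casp9, while Casp2 is activated on a platform of Pidd1 and Cradd. Initiators cleave executioner caspases, of which Casp6 is one, and these take the cell apart. Casp1 and Casp4 serve inflammation: both cut gasdermin D, which opens pores in the membrane, and Casp1 matures the cytokines encoded by Il1b and Il18. Casp8 also restrains necroptosis, the lytic death carried out by Ripk3 and Mlkl. The data below are transcript levels and say nothing of cleavage or activity.

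Counts per library summed to between 36942835 and 56437299, and single members had between 590 and 9919 counts in a library. Nynrin itself (chr14:55854010-55874736) was at 30.1 to 47.5 CPM in controls (counts scaled to a library of 1000000) and 8.22 to 12.7 in Nynrin CKO, with a log2 fold change of -1.85 (SE 0.22, edgeR adjusted p = 0.0345). All 4 Nynrin CKO libraries lay far below all controls. The adjusted p of Nynrin passed without control 3 or control 4 and was 0.0545 to 0.123 without any other single library. The libraries differed in ways the groups do not explain. Reads of olfactory and vomeronasal receptor genes summed to 142 to 225 CPM in control 4 and Nynrin CKO 3 and 4, and to 891 to 1670 CPM in the other 5. The first 3 libraries are called the few-receptor set below, and values within each set are given beside the results. Mitochondrially encoded genes held 5.98% to 7.44% of the controls' counts, 6.56% and 6.78% in Nynrin CKO 1 and 2, and 9.86% and 9.90% in Nynrin CKO 3 and 4. Xist was at 4811 and 4458 CPM in controls 3 and 4 and at 5.70 to 12.4 CPM in the other 6 libraries. Libraries with high Xist thus occurred among controls only. In the few-receptor set the lone control was high and both Nynrin CKO libraries were low. Differences within that set therefore cannot be told apart from a difference of Xist class. Whether the libraries stand for separate mice is not stated in the labels, and p-values thus describe the spread among these libraries, which may be technical.

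The stretches of genome just before the start sites of 4 members are shown because their transcripts followed 3 different patterns: Casp1 and Casp8 rose, Casp4 was highest in 2 of the 4 Nynrin CKO libraries, and Casp9 was lower in every Nynrin CKO library. Each is 250 bases long, written 5′ to 3′ on the strand of the gene (all 4 are on the plus strand), from RefSeq promoter sequences of build GRCm38.p6. Capitals mark matches, on either strand, to 6 motifs: GGGATTTCC, a kind of site bound by NF-kB factors; TTCNNNGAA, the spaced palindrome of STAT factors; GGGCGG, the GC box of the Sp1 family; TATAAA, the TATA box; CCAAT, the CCAAT box; and 2 GAAA tetramers separated by 1 or 2 bases of any kind, the layout of interferon response elements.
Casp1, chr9:5298267-5298516: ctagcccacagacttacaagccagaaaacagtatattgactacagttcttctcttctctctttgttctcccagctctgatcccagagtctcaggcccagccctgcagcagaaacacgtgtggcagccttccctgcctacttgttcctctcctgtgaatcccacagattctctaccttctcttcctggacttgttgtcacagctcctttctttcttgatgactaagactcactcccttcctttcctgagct
Casp4, chr9:5308599-5308848: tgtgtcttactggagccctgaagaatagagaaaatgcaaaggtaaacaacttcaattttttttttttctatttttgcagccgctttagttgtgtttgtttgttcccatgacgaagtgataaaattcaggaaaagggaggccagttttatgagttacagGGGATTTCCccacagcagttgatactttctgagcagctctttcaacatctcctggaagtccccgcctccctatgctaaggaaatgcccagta
Casp8, chr1:58802252-58802501: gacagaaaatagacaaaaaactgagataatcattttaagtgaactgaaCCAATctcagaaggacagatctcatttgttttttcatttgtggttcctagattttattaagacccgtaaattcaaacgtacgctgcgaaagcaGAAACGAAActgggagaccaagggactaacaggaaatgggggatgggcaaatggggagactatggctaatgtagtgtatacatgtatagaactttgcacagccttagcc
Casp9, chr4:141793362-141793611: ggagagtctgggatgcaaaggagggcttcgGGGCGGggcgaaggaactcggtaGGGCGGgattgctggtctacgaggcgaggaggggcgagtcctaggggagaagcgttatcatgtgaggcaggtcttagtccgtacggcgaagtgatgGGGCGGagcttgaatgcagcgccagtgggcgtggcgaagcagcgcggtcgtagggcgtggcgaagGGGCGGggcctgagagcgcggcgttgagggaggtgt
The Casp1 window held none of the 6 motifs, a GC content of 49.2% and 1 CpG. The Casp4 window, for the first of its 2 listed start sites, held GGGATTTCC with its first base 92 bases before the start, a motif present in 0.283% of 32851 windows of the same length, and it overlapped 1 annotated Casp4 exon. The Casp8 window lay inside the annotated gene, between exons, because RefSeq starts this transcript downstream of the first base of the gene record. It held the GAAA pair 109 bases and CCAAT 202 bases before the start; the pair was in 5.38% and CCAAT in 33.8% of all windows. The Casp9 window was the most GC-rich of the 8 members, with 66.0% GC, 25 CpG and 4 copies of GGGCGG, which was present in 32.7% of all windows. A match describes letters only, and no binding was measured.

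Of the 8 members, 2 rose in Nynrin CKO and none fell. Casp1 and Casp8 passed the edgeR test at an adjusted p under 0.05, where 2.8% of all tested genes passed in either direction, 2.22% as higher and 0.588% as lower. The tested genes include many at low levels. With only the 17026 genes of a mean of at least 1 CPM tested, 1168 passed, Casp1 and Casp8 among them. Every member is in that set, a larger share of which passed. The shares below are over all tested genes and were not taken for it. Another 2 members, Casp6 (higher) and Casp9 (lower), had groups that did not overlap but did not pass. In total the 4 control and 4 Nynrin CKO values were apart for 4 members, 3 higher and 1 lower, against 14.3% of all tested genes. Casp2, Casp4, Fadd and Cflar had overlapping groups. The log2 fold change was positive for 5 members and negative for 3, with a median of 0.35. Over all tested genes 44.5% were positive and the median was -0.09. These values rest on the scaling of the libraries: 79% of called genes were higher with TMM factors, 47.3% with upper-quartile factors, 37.1% with RLE factors and 15.6% with total counts alone, which placed the median of all genes at -0.34. With Nynrin CKO 1 and 2, and likewise 3 and 4, summed to 1 library each, edgeR called 0 genes (3022 at an unadjusted p under 0.05), with an adjusted p of 0.443 for both Casp1 and Casp8. In bulk RNA of this kind, fewer cells of a type and less RNA per cell cannot be told apart.

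**Figure D1:**
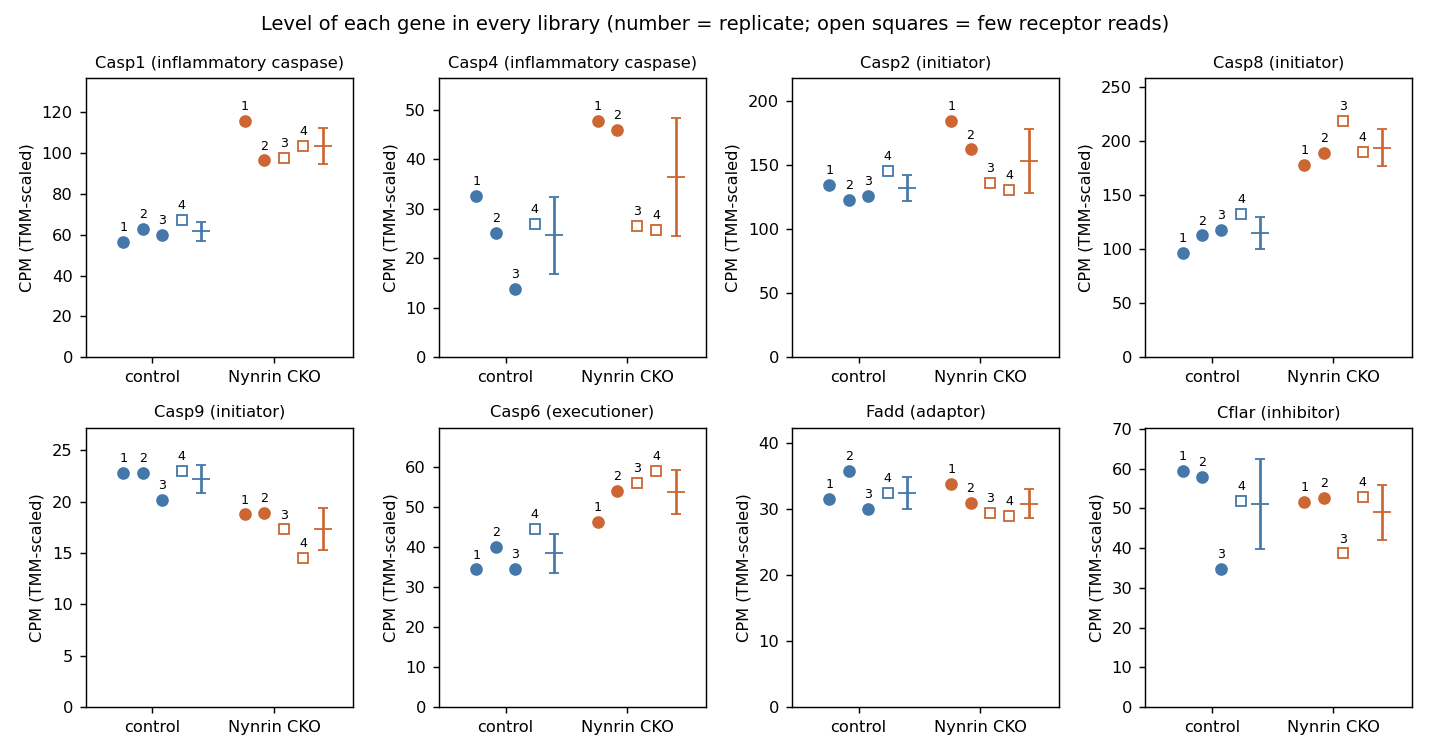
Level of the 8 genes in each library in CPM scaled by TMM factors, with controls in blue and Nynrin CKO in orange; numbers are replicates, open squares are the few-receptor set (control 4, Nynrin CKO 3 and 4), and the bar beside each group is the mean ± SD of 4 libraries. The groups are apart for Casp1, Casp8, Casp6 and Casp9 and overlap for Casp4, Casp2, Fadd and Cflar.

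Casp1 (ENSMUSG00000025888, chr9:5298508-5307290 in mm10), the protease of the inflammasome, rose in Nynrin CKO. It was at 56.4, 62.9, 59.7 and 67.3 CPM in controls 1 to 4, and the Nynrin CKO libraries 1 to 4 were at 116, 96.3, 97.8 and 104 CPM. The lowest Nynrin CKO library lay well above the highest control, and the 4 controls were close to each other. Controls averaged 61.6 ± 4.66 CPM and the other group 103 ± 8.83 CPM (SD, n = 4), a ratio of 1.68. Casp1 rose by 0.75 on the log2 scale (SE 0.10, 95% interval 0.52 to 0.98, edgeR adjusted p = 0.0345; exact permutation p = 0.0286, the lowest value possible with these group sizes). The difference was 0.83 among the libraries with more receptor reads and 0.58 in the few-receptor set. The adjusted p passed without control 4 (0.0240) and missed the threshold when any other single library was left out (up to 0.138). The change was 0.49 with total counts alone (adjusted p = 0.129) and 0.43 once a trend of the libraries with transcript length and with GC content was removed (adjusted p = 0.176).

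Casp4 (ENSMUSG00000033538, chr9:5308828-5336783), the receptor for bacterial lipopolysaccharide inside the cell, begins 1537 bases beyond the end of Casp1 on the same strand. It was at 32.6, 25.02, 13.9 and 26.9 CPM in controls 1 to 4 and at 47.7, 45.8, 26.6 and 25.8 CPM in Nynrin CKO 1 to 4. Nynrin CKO 1 and 2 were above every control, while Nynrin CKO 3 and 4 lay within the control range. The means were 24.6 ± 7.84 CPM (controls) and 36.5 ± 11.9 CPM (Nynrin CKO), with a log2 fold change of 0.57 (SE 0.29, 95% interval -0.09 to 1.23, edgeR adjusted p = 0.344). Within library sets the difference was 0.97 where receptor reads were more and -0.04 where they were few. The interval spans both no change and a change larger than that of Casp1.

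Casp12, the next gene on the chromosome, begins 8646 bases after Casp4 and divided the Nynrin CKO libraries in the same order. It was at 66.7, 53.6, 40.1 and 56.5 CPM in controls and at 76.8, 69.9, 33.5 and 36.6 CPM in Nynrin CKO. Nynrin CKO 1 and 2 were above all controls, Nynrin CKO 3 and 4 were below all controls, and the fitted difference was close to 0 (log2 fold change -0.0005, edgeR adjusted p = 0.9996). A like division was seen in Gbp2, an interferon-induced GTPase that helps expose bacterial lipopolysaccharide to Casp4, and in Zbp1, an interferon-induced sensor of nucleic acids that binds Ripk3. Gbp2 was at 286 CPM in both Nynrin CKO 1 and Nynrin CKO 2, while Nynrin CKO 3 and 4 had 103 and 107 CPM and the controls 74.8 to 105 CPM. Zbp1 reached 112 and 131 CPM in Nynrin CKO 1 and 2, whereas Nynrin CKO 3 and 4 had 10.2 and 12.5 CPM and the controls 7.78 to 29.2 CPM. Neither passed the test (edgeR adjusted p = 0.144 for Gbp2 and 0.192 for Zbp1). Casp1 did not divide in this way: Nynrin CKO 2, 3 and 4 were at 96.3 to 104 CPM. The count ratio of Casp1 over Casp4 lay between 1.73 and 4.31 in controls and between 2.10 and 4.02 in Nynrin CKO, with overlapping groups.

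**Figure D2:**
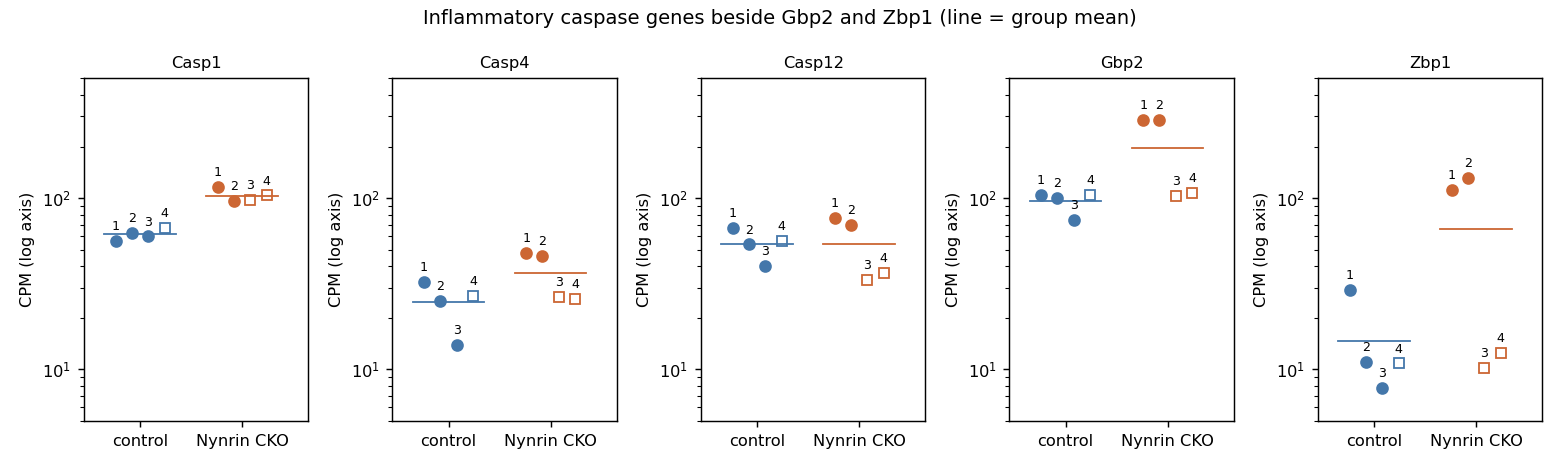
Level in CPM on a log axis of the 3 neighbouring caspase genes Casp1, Casp4 and Casp12 and of Gbp2 and Zbp1 in each library, with a line at the group mean; numbers are replicates and open squares the few-receptor set. Nynrin CKO 1 and 2 are above Nynrin CKO 3 and 4 for Casp4, Casp12, Gbp2 and Zbp1, while all 4 Nynrin CKO libraries are above the controls for Casp1.

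Casp8 (ENSMUSG00000026029, chr1:58795374-58847503), the initiator of death receptor signalling, rose by a like amount. It was at 96.4, 113, 118 and 132 CPM in controls 1 to 4 and at 178, 189, 218 and 190 CPM in Nynrin CKO 1 to 4. All Nynrin CKO libraries were above all controls, and both library sets gave the same direction. Controls averaged 115 ± 14.9 CPM and Nynrin CKO 194 ± 17.3 CPM (SD, n = 4), a ratio of 1.69. Casp8 rose by 0.76 on the log2 scale (SE 0.12, 95% interval 0.48 to 1.03, edgeR adjusted p = 0.0379; exact permutation p = 0.0286), 0.75 among libraries with more receptor reads and 0.62 in the few-receptor set. A record that shares part of its region, Gm37760, held 2.36% as many counts as Casp8. As for Casp1, the adjusted p passed without control 4 (0.0240) and missed the threshold without any other single library (up to 0.195). With total counts alone the change was 0.48 (adjusted p = 0.0866).

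Casp9 (ENSMUSG00000028914, chr4:141793612-141815976), the initiator of the mitochondrial route, was the one member with lower values in all Nynrin CKO libraries. It was at 22.8, 22.8, 20.2 and 23.0 CPM in controls 1 to 4 and at 18.8, 18.9, 17.3 and 14.5 CPM in Nynrin CKO 1 to 4. The groups did not overlap, though control 3 and Nynrin CKO 2 were only about 1 CPM apart. The means were 22.2 ± 1.35 CPM (controls) and 17.4 ± 2.04 CPM (Nynrin CKO), 0.782 times the control level. A log2 fold change of -0.35 (SE 0.13, 95% interval -0.64 to -0.07) did not pass (edgeR adjusted p = 0.154; exact permutation p = 0.0286). DESeq2 gave an adjusted p of 0.0176 for the same gene. The difference was -0.22 among libraries with more receptor reads and -0.54 in the few-receptor set. Its partner Apaf1 had overlapping groups (log2 fold change -0.31, edgeR adjusted p = 0.341; -0.41 and -0.01 within the more-receptor and few-receptor sets), and the count ratio of Casp9 over Apaf1 was 0.635 to 0.939 in controls against 0.646 to 0.892 in Nynrin CKO.

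Casp2 (ENSMUSG00000029863, chr6:42264985-42282508), activated in response to extra centrosomes and DNA damage, did not pass the test. It was at 135, 123, 126 and 146 CPM in controls 1 to 4 and at 185, 162, 136 and 131 CPM in Nynrin CKO 1 to 4. Nynrin CKO 1 and 2 were above all controls and Nynrin CKO 3 and 4 lay within their range. The log2 fold change was 0.21 (SE 0.13, 95% interval -0.08 to 0.51, edgeR adjusted p = 0.452), with 0.44 where receptor reads were more and -0.13 where they were few. Its sign turned with total counts alone (-0.03), and it passed in the set over 300 CPM of receptor reads alone (0.43, edgeR adjusted p = 0.0495).

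Casp6 (ENSMUSG00000027997, chr3:129901425-129914103), an executioner that cleaves nuclear lamins, had higher values in every Nynrin CKO library. It was at 34.4, 40.1, 34.6 and 44.5 CPM in controls 1 to 4 and at 46.2, 54.1, 56.05 and 59.1 CPM in Nynrin CKO 1 to 4. The groups did not overlap, but control 4 and Nynrin CKO 1 were close. The means were 38.4 ± 4.84 CPM (controls) and 53.9 ± 5.51 CPM (Nynrin CKO), 1.40 times the control level. Its log2 fold change of 0.49 (SE 0.12, 95% interval 0.21 to 0.77) narrowly missed the threshold (edgeR adjusted p = 0.0671), and it was 0.46 and 0.37 within the more-receptor and few-receptor sets. It passed in DESeq2 (adjusted p = 0.0376) and in edgeR without control 4 (0.0410). With total counts or RLE factors the groups overlapped.

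**Figure D3:**
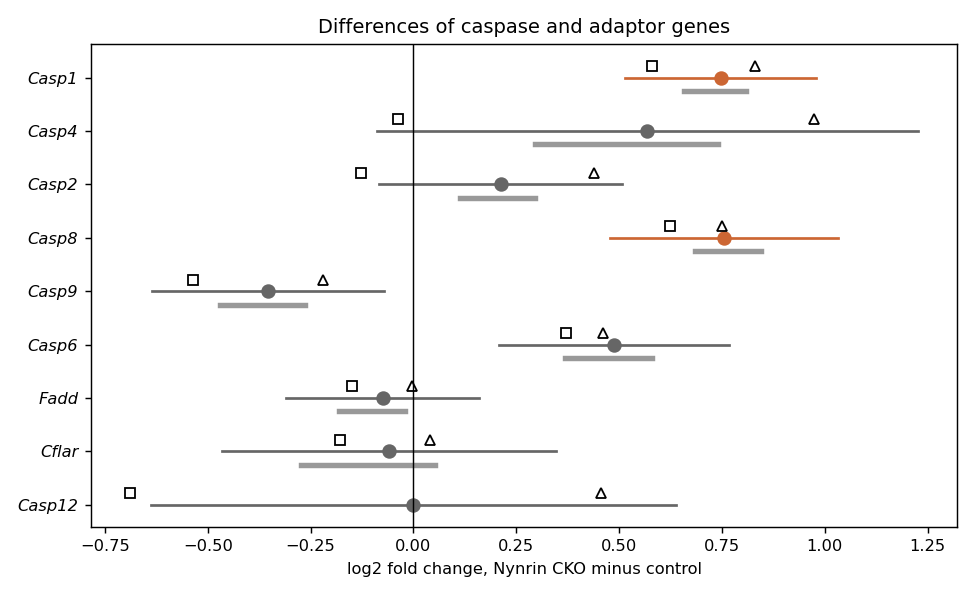
Log2 fold change, Nynrin CKO minus control, of the 8 genes and of Casp12; circles are estimates over all 8 libraries with their 95% interval, in orange where the edgeR adjusted p is under 0.05. Grey bars give the range with each library left out in turn (8 genes only), triangles the difference among libraries with more receptor reads and open squares that in the few-receptor set; Casp1, Casp8 and Casp6 are positive and Casp9 negative in every version shown, while Casp4, Casp2 and Casp12 have triangles right and squares left of 0.

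Neither of the partners that set Casp8 activity passed the test. Fadd (ENSMUSG00000031077, chr7:144577318-144582463, minus strand) was at 31.6, 35.9, 30.1 and 32.5 CPM in controls and at 33.9, 31.0, 29.5 and 29.1 CPM in Nynrin CKO. The groups overlapped, and the log2 fold change was -0.08 (SE 0.10, 95% interval -0.31 to 0.16, edgeR adjusted p = 0.784), an interval that leaves out the size of the Casp8 change. Cflar (ENSMUSG00000026031, chr1:58711508-58758884), which ends 36489 bases before Casp8 on the same strand, was at 59.5, 58.0, 34.8 and 51.8 CPM in controls and at 51.7, 52.7, 38.7 and 52.9 CPM in Nynrin CKO. One library of each group, replicate 3, was low, and the others were alike. The log2 fold change of Cflar was -0.06 (SE 0.18, 95% interval -0.47 to 0.35, edgeR adjusted p = 0.913), and its sign turned under several settings.

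Ratios of raw counts within a library need no scaling between libraries. A trend of a library with transcript length or GC content does not cancel in them, however, where the 2 genes differ in these. GC content was 46.6% for Casp8 and 53.4% for Casp9. With that trend removed the log2 fold change of Casp8 was 0.64 (edgeR adjusted p = 0.163), and no ratio was corrected for it. Casp8 over Fadd was 3.05, 3.14, 3.92 and 4.08 in controls 1 to 4 and 5.25, 6.10, 7.41 and 6.53 in Nynrin CKO 1 to 4. The groups were well apart, and the mean ratio in Nynrin CKO was 1.78 times that of controls. Casp8 over Cflar was 1.62, 1.94, 3.39 and 2.56 in controls and 3.44, 3.59, 5.65 and 3.59 in Nynrin CKO. Here the gap was narrow, between control 3 and Nynrin CKO 1, because Cflar was low in control 3. Casp8 over Casp9 was 4.23 to 5.84 in controls against 9.48 to 13.1 in Nynrin CKO, with means of 5.19 ± 0.759 and 11.3 ± 1.83. No Nynrin CKO library had a ratio of these 2 initiators near that of a control. They are the members with the largest positive and the largest negative log2 fold change, and their ratio was chosen after values were seen. Casp8 also stood higher against the necroptosis kinase Ripk3 (1.32 to 1.49 in controls, 1.54 to 1.88 in Nynrin CKO). Against Ripk1 the groups overlapped (4.25 to 6.13 and 6.04 to 7.95). The opposite-strand record Serpinb6a, which shares part of the Ripk1 region, held 85.8% as many counts as Ripk1, and these counts may be mixed.

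Casp1 was set against its adaptor and its substrate in the same way. GC content was 41.15% for Casp1 and 54.35% for Gsdmd, so the same limit holds. Over Gsdmd, the gasdermin D gene, it was 0.952, 0.950, 0.943 and 0.923 in controls 1 to 4, a spread of 0.013 (SD), and 1.40, 1.12, 1.58 and 1.58 in Nynrin CKO 1 to 4. All Nynrin CKO ratios were above 1 and all control ratios below it. Over Pycard, the inflammasome adaptor, the ratio was 0.657 to 0.844 in controls against 0.921 to 1.22 in Nynrin CKO; a record on the opposite strand of Pycard held 16.7% as many counts. The ratio of Casp1 over Casp8 had the same mean in both groups (0.539 ± 0.0387 and 0.538 ± 0.0852).

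**Figure D4:**
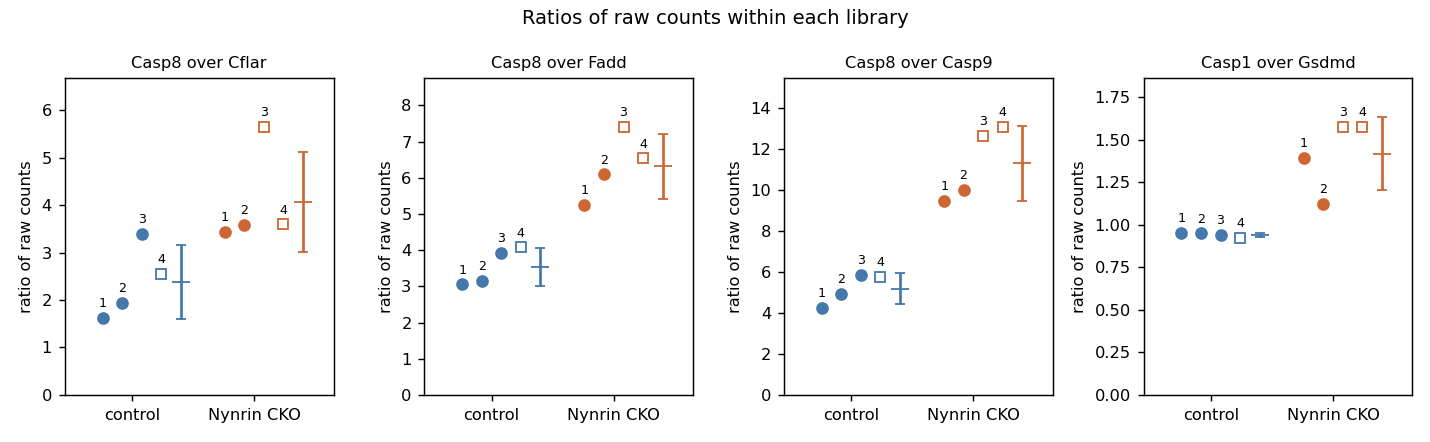
Ratio of raw counts of Casp8 over Cflar, Fadd and Casp9 and of Casp1 over Gsdmd in each library, with controls in blue and Nynrin CKO in orange; numbers are replicates, open squares the few-receptor set, bars the mean ± SD of 4 libraries. The groups are apart in all 4 panels, most narrowly for Casp8 over Cflar (3.39 in control 3, 3.44 in Nynrin CKO 1). The panels were chosen after values were seen, and their numerators are the 2 members that passed as higher. Groups overlapped for Casp8 over Ripk1, Casp1 over Casp4, Casp1 over Casp8 and Casp9 over Apaf1, which are not drawn.

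Levels were compared between genes per length, which takes reads to cover whole transcripts. The cDNA priming is not given, so the order below holds only under that assumption. In CPM per kilobase of the longest annotated transcript, Casp8 led the controls at 44.4 ± 5.76, followed by Casp1 at 41.1 ± 3.12 and Casp2 at 37.5 ± 2.87. Below a gap came Casp12 at 20.5 ± 4.14, Casp4 at 12.9 ± 4.13, Casp6 at 9.82 ± 1.24, Fadd at 8.33 ± 0.626, Cflar at 7.77 ± 1.72 and Casp9 at 5.70 ± 0.347. The control ranges of all neighbours in this order overlapped except Casp2 and Casp12. Within single control libraries, Casp12 was above Casp4, Casp6 above Fadd and Cflar above Casp9 in 4 of 4, while Casp8 over Casp1, Casp1 over Casp2, Casp4 over Casp6 and Fadd over Cflar held in 3 of 4. In Nynrin CKO the levels per kilobase were 74.99 for Casp8, 69.0 for Casp1, 43.5 for Casp2 and 4.46 for Casp9, and these 9 genes stood in the same order as in controls. With the length of all annotated exons together, Casp1 (41.1) stood before Casp8 (39.7), Fadd (8.33) before Casp6 (6.88) and Casp4 (6.63), and Cflar (4.03) was last after Casp9 (4.27). Under either length the RNA for the initiator Casp8 was several times that for its adaptor Fadd.

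HSC markers were present in every library, with summed levels of 4614 to 5413 CPM (controls) and 5203 to 6116 CPM (Nynrin CKO) over 20 genes. Single HSC genes went different ways: 7 of the 20 had positive values, none passed, and 2 had lower groups apart, Mecom (91.4 to 108 CPM in controls against 31.1 to 69.7 CPM, log2 fold change -0.98, edgeR adjusted p = 0.0746) and Fgd5 (-0.75, adjusted p = 0.108). Kit, the most abundant, was at 1351 to 1632 CPM (controls), 1329 and 1305 CPM (Nynrin CKO 1 and 2) and 2331 and 2361 CPM (Nynrin CKO 3 and 4). Summed markers of neutrophils, monocytes, B cells, T and NK cells and erythroid cells were higher in every Nynrin CKO library than in any control. All of these but the erythroid sum, and the mast cell and basophil sum too, were highest in Nynrin CKO 3 and 4. Single genes carried much of most sums. Kit and Cd34 held 2331 and 1564 of 6116 CPM of the HSC sum in Nynrin CKO 3. Nkg7 held 77.7 of 91.8 CPM of the T and NK cell sum in control 1 and 267 of 316 CPM in Nynrin CKO 3. Lyz2 held 329 of 421 CPM of the monocyte and macrophage sum in control 1. Car2 held 1281 of 1460 CPM of the erythroid sum in control 1 and 2181 of 2503 CPM in Nynrin CKO 1. Of the 12 erythroid genes 10 had positive values, while Hbb-bt and Slc4a1 had negative ones. Ighm held 1012 of 1506 CPM of the B cell sum in Nynrin CKO 3. Prg2 held 274.9 of 480 and 286.5 of 490 CPM of the mast cell and basophil sum in Nynrin CKO 3 and 4. The 20 neutrophil genes, led by Mpo and Prtn3, summed to 359 to 542 CPM (controls), 667 and 720 CPM (Nynrin CKO 1 and 2) and 4412 and 4436 CPM (Nynrin CKO 3 and 4), and 4 of the 20 passed as higher. Mpo alone held 2829 of 4412 CPM in Nynrin CKO 3. Of the 20 genes 19 had positive values, but not all by much. The log2 fold change was -0.09 for Mmp9, 0.14 for Ly6g, 0.30 for Lcn2 and 0.38 for Mmp8 (edgeR adjusted p = 0.815 to 0.964). The 18 monocyte and macrophage genes, of a lineage that expresses Casp1 and Casp4, summed to 358 to 421 CPM (controls), 506 and 502 CPM (Nynrin CKO 1 and 2) and 916 and 914 CPM (Nynrin CKO 3 and 4), with 2 passing. The 14 B cell genes summed to 123 to 170 CPM in the controls against 409 to 1506 CPM (1 passing), the 12 mast cell and basophil genes to 12.7 to 59.7 and 35.4 to 490 CPM (2 passing), and the 12 erythroid genes to 1156 to 1460 and 2139 to 2503 CPM (3 passing). The 14 T and NK cell genes summed to 62.0 to 91.8 and 156 to 316 CPM (2 passing), the 8 megakaryocyte genes to 142 to 417 and 159 to 382 CPM, and the 12 endothelial genes to 241 to 325 and 246 to 523 CPM, with none passing in these last 2 lists. No marker was at 0 in all libraries. Cd3e, a defining marker of T cells, stayed under 2 CPM. The 2 passing genes of the T and NK cell list, Nkg7 and Ccl5, were higher in Nynrin CKO. Nkg7 was at 45.9 to 77.7 CPM in controls and 133 to 267 CPM in Nynrin CKO (edgeR adjusted p = 0.0379). Ccl5 was at 0.476 to 1.53 CPM and 7.34 to 8.49 CPM (adjusted p = 0.0345). Among the neutrophil genes Elane was at 0.688 to 12.7 CPM (controls), 34.4 and 35.5 CPM (Nynrin CKO 1 and 2) and 402 and 421 CPM (Nynrin CKO 3 and 4). Neither Casp1 (116 and 96.3 CPM against 97.8 and 104) nor Casp8 (178 and 189 against 218 and 190) followed the large step of the neutrophil sum from Nynrin CKO 1 and 2 to Nynrin CKO 3 and 4. Some markers that passed as higher lacked that step too. Mpeg1, of the monocyte and macrophage list, was at 1.497 to 2.89 CPM in controls and 10.6 to 12.01 CPM in Nynrin CKO. Ccl5 was likewise alike in all 4 Nynrin CKO libraries. The lack of a step therefore does not set Casp1 and Casp8 apart from the markers. The part of cells of these lineages in the results was not tested.

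Among 84 further genes of the same pathways, all tested, 1 passed as higher and 2 as lower (3.57%, near the 2.8% of all tested genes), with a median log2 fold change of 0.14. The 2 lower genes both encode members of the TNF receptor superfamily. Tnfrsf21, a receptor with a death domain, was at 105, 102, 96.5 and 97.5 CPM in controls and at 72.6, 75.1, 69.0 and 69.0 CPM in Nynrin CKO. The groups were far apart and each was tight, and Tnfrsf21 fell by 0.49 on the log2 scale (SE 0.09, edgeR adjusted p = 0.0394). Tnfrsf1b, a TNF receptor without a death domain, was at 79.6, 92.6, 62.4 and 73.2 CPM in controls and at 55.2, 53.1, 43.5 and 49.1 CPM in Nynrin CKO. Its groups were also apart, and it fell by 0.62 (SE 0.14, adjusted p = 0.0498). Without single libraries Tnfrsf21 kept its call only where control 4 was left out (adjusted p up to 0.133) and Tnfrsf1b in no case (0.0604 to 0.153). Tnfrsf10b, the receptor for the ligand encoded by Tnfsf10, was at 9.63 ± 0.662 and 6.94 ± 1.08 CPM with groups apart (log2 fold change -0.47, adjusted p = 0.155). Of the 12 death receptor and ligand genes 5 had positive values, and the median was -0.41, against 0.35 for the 8 caspase and adaptor genes. Fasl, Tnfrsf25, Lta, Tnfsf12 and Tnfsf15 of that list averaged under 1 CPM in both groups. Their signs are uncertain (SE 0.81 to 1.63), and they count in the list's median.

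Downstream of the receptors, none of the 16 complex partners passed, though 13 had positive values (median 0.26). The smallest p-values belonged to Birc3, a ubiquitin ligase that blocks Casp8 activation (35.8 ± 3.34 and 49.98 ± 4.57 CPM, log2 fold change 0.48, edgeR adjusted p = 0.0530), to Faim, an inhibitor of Fas-induced death (23.3 ± 3.62 and 33.3 ± 1.93 CPM, 0.52, adjusted p = 0.0633), and to the TNF receptor adaptor Traf5 (19.4 ± 3.68 and 30.0 ± 5.45 CPM, 0.63, adjusted p = 0.0858). All 3 had groups apart. Bid, the link from Casp8 to mitochondria because Casp8 cleaves its product into an active form, was the 1 gene that passed as higher. It was at 54.1, 56.1, 59.4 and 83.2 CPM in controls and at 98.1, 95.4, 122 and 114 CPM in Nynrin CKO. The groups were apart, with control 4 nearest to Nynrin CKO, and Bid rose by 0.76 (SE 0.16, edgeR adjusted p = 0.0447), a call kept without control 4 and lost without any other single library (adjusted p up to 0.270). With total counts alone the Bid value was 0.49 (adjusted p = 0.106). The opposite-strand record Bcl2l13, which shares part of the region, held about as many counts as Bid (101%), and counts of the 2 records may be mixed where strand was not used. Of the other 11 substrates and nucleases none passed; Panx1, a channel opened by caspase cleavage, had a log2 fold change of 0.65 (adjusted p = 0.0740), and Dffb, the nuclease that cuts DNA between nucleosomes, one of 0.57 (adjusted p = 0.0805).

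On the mitochondrial side none of the 8 apoptosome and inhibitor genes passed, and 6 were positive (median 0.27). Birc5, a mitotic member of the inhibitor of apoptosis family, was at 43.0 ± 8.12 and 70.5 ± 11.8 CPM (log2 fold change 0.71, edgeR adjusted p = 0.0517). Cycs, the cytochrome c gene, was at 134 ± 22.7 and 210 ± 39.5 CPM (0.65, adjusted p = 0.0745), and Diablo, an antagonist of the inhibitors, at 77.8 ± 5.87 and 90.3 ± 3.10 CPM (0.22, adjusted p = 0.246). Thus the values of Cycs and of Casp9 lay on opposite sides of 0. Of the 4 Casp2 partners none passed: Cradd, the adaptor between Pidd1 and Casp2, had a log2 fold change of 0.69 (adjusted p = 0.0744), Npm1, a nucleolar scaffold of the Casp2 platform, one of 0.59 (adjusted p = 0.128) and Pidd1 one of 0.25 (adjusted p = 0.347).

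In the inflammatory branch none of 24 inflammasome and pyroptosis genes passed, 12 were positive and the median was 0.0006, while Casp1 itself rose. Card9, an adaptor of innate immune receptors, had the largest value (1.32 ± 0.517 and 7.66 ± 6.98 CPM, log2 fold change 2.53, SE 0.75, edgeR adjusted p = 0.0974), with overlapping groups and an opposite-strand record of 33.8% of its counts. Its difference came from Nynrin CKO 3 and 4 (12.3 and 14.9 CPM), while Nynrin CKO 1 and 2 (1.64 and 1.73 CPM) lay within the control range of 0.833 to 1.79 CPM. Il18, a cytokine gene whose product Casp1 matures, was at 19.4 ± 4.03 and 29.7 ± 4.79 CPM (0.62, adjusted p = 0.0875), with an opposite-strand record of 23.1% of its counts. All 5 necroptosis genes had positive values (median 0.42) and none passed. Ripk3 was at 82.2 ± 12.4 and 115 ± 20.7 CPM (0.49, adjusted p = 0.122) and Mlkl, the pore former of necroptosis, at 38.1 ± 3.997 and 51.1 ± 5.79 CPM (0.42, adjusted p = 0.0884), both with groups apart. Casp14, a skin caspase, had under 1 CPM in every library.

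**Figure D5:**
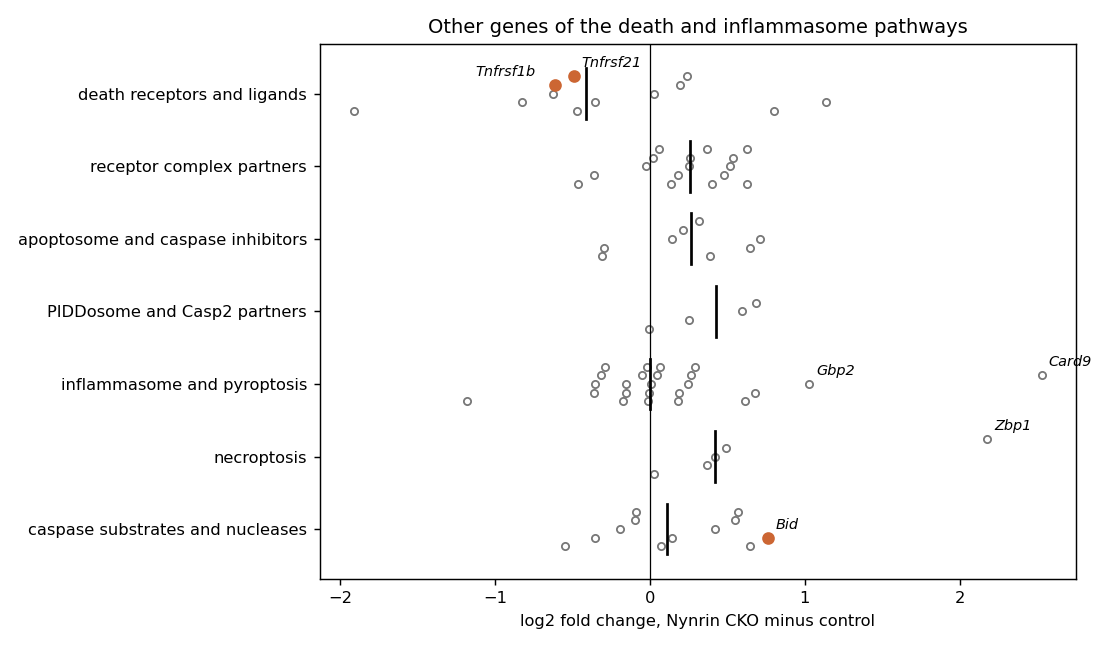
Log2 fold change, Nynrin CKO minus control, of the other death and inflammasome genes by list, 1 point per gene, with filled orange points where the edgeR adjusted p is under 0.05 and a vertical bar at the median of each list. The 3 filled points are Tnfrsf1b and Tnfrsf21 on the left and Bid on the right, and the list medians run from -0.41 for death receptors and ligands to 0.42 for necroptosis and for the Casp2 partners.

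The genes whose levels over the 8 libraries were most like those of Casp8 were Psmc3, a proteasome ATPase (root-mean-square difference 0.0722 on the log2 scale, each gene centred on its own mean), Taf8, a subunit of the transcription factor TFIID (0.0798), and Ssna1 (0.0807), among 9169 genes with a mean of at least 10 CPM. Their own log2 fold changes were 0.77, 0.70 and 0.68. Near to Casp9 were Tbc1d9b (0.0416) and Mapk1ip1l (0.0510), with log2 fold changes of -0.36 and -0.35. Nearest to Casp1 were Nsdhl, an enzyme of cholesterol synthesis (0.0701), Frg1 (0.0790) and Chmp2a (0.0923), and Casp8 was number 139 in that order at 0.151. Casp4 had no gene as close: its nearest were Gp1ba (0.152), S100a1 (0.152) and the RNA-editing enzyme Adar (0.163). These distances describe 8 shared libraries and carry their scaling.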

How the data were processed

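The deposited table holds the authors' raw counts, whole numbers of reads for each gene with 1 column per library, per the file headers. Genes carried Ensembl mouse identifiers and coordinates, on mm10, the build named by the submitters' processing notes. Aligner, counting method, strandedness and cDNA priming are not given in the sources, so reads of overlapping records can fall on either record. The series text gives a smaller cell number beside the 3000 sorted cells.

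The 8 members and all lists were chosen with earlier results of these data known. Groups came from the sample labels. Counts were tested in R 4.3.3 with edgeR 4.0.16: filterByExpr, TMM factors, a robust quasi-likelihood F-test of 4 against 4 libraries, and Benjamini-Hochberg adjustment over 27573 genes at a threshold of 0.05. CPM are scaled by TMM factors, except receptor and Xist values, which are relative to all counts. Means are ± SD over libraries. A two-sided exact permutation test over 70 assignments on log2(CPM + 1) was run for each member. Differences within library sets (divided at 300 CPM of receptor reads) were fitted with a separate mean for every combination of group and set; control 4, the lone control of its set, is taken to vary as the other libraries do. Lengths came from the GENCODE M21 annotation, of the same assembly, and all 8 members matched a RefSeq promoter record. Every member had at least 590 counts in each library.

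All members were named, with Nynrin and up to 3 genes of smallest p per pathway list; the 3 nearest genes were named for Casp8 and Casp9. Some genes that this rule would name are not reported here. Casp12, the count ratios, the nearest genes of Casp1 and Casp4 and single marker genes were added after values were seen. Alternatives were RLE, upper-quartile or no factors, other filters, a fit without robust estimation, a replicate term, a term for library set or for Xist class, the larger set alone, summed Nynrin CKO pairs, removal of a trend on length and GC content, removal of each library, DESeq2 1.42.0 and limma-voom (limma 3.58.1). Replicates of a group differed by far more than sampling noise (chi-square per degree of freedom of 21.6 or more), so no library was a copy of another and all were counted; whether the close pairs, Nynrin CKO 1 and 2 and Nynrin CKO 3 and 4, share a mouse or preparation is not stated. Protein sequences were not used here.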

Additional observations from a re-analysis of the deposited data

Results flagged for a closer look

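In 5 of 60 groups of 4 libraries, over 30 named genes, 1 library lay apart from the other 3 by more than Dixon's limit for 4 values, as a share of the whole range; chance flags about 1 in 20 groups. Casp9 was at 20.2 CPM in control 3, below 22.8 to 23.0 CPM in the other controls (gap over range 0.915), which brings that library nearest to Nynrin CKO. Cflar was at 38.7 CPM in Nynrin CKO 3, below 51.7 to 52.9 CPM in the others (0.919), and without that library its log2 fold change was 0.05. Birc5 was at 55.2 CPM in control 1, above 38.3 to 39.6 CPM (0.92). Gbp2 was at 74.8 CPM in control 3, below 100.5 to 104.5 CPM (0.867), and Zbp1 at 29.2 CPM in control 1, above the other 3 controls (0.85).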

How the results depend on the processing

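The directions of Casp1, Casp4, Casp6, Casp8, Casp9 and Fadd held under all 22 alternatives; total counts turned the signs of Casp2 (-0.029), Diablo (-0.048) and Pidd1 (-0.031), and Cflar turned with the library set over 300 CPM only (0.032), with the trend on length and GC content removed (0.103) and on leaving out single libraries (-0.273 to 0.052). Casp14 turned in the set over 300 CPM (0.051). Casp1 ranged from 0.43 to 0.82 and Casp8 from 0.48 to 0.89 on the log2 scale, and each passed in 8 of 22 alternatives. The 773 genes called and the 2 members called higher became 35 and 0 with RLE factors, 377 and 0 with total counts only, 49 and 0 with no filter on low counts, 10 and 0 with an Xist class term, 3 and 0 with the length and GC trend removed, and 0 and 0 with Nynrin CKO pairs summed (3022 genes at an unadjusted p under 0.05 in edgeR). Calls were 476 with upper-quartile factors and 1168 of 17026 genes with a mean of at least 1 CPM (2 members each), and 1629 with a library set term, 2168 in the set over 300 CPM, 2636 with DESeq2 and 2153 with limma-voom (3 members each). The third member was Casp2 in the set over 300 CPM and Casp6 in the others. DESeq2 also called 1 member lower, Casp9. Leaving out single libraries gave 1 to 1372 genes called and 0 to 3 members; the count was above 7 only without control 4. The cause of these differences was not tested. Scaling moved the median of all genes by -0.11 with upper-quartile factors and by -0.25 with total counts.

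Replicate numbers are shared by the groups, but deviations of same-numbered libraries correlated at 0.153, 0.125, -0.129 and 0.28, and since 1 of the 4 was below 0.1 the numbers were not taken to pair the samples, though 3 of 4 controls matched best with their own number. With a replicate block edgeR called 0 genes and 0 members (5144 genes at an unadjusted p under 0.05), with Casp1 at 0.75 (adjusted p = 0.0690) and Casp8 at 0.76 (0.0690).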

Other observations

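Besides Gbp2 and Zbp1, a pair of pathway genes with a mean of at least 10 CPM had both of Nynrin CKO 1 and 2 at least 2-fold above both of Nynrin CKO 3 and 4, and none had the reverse. Birc2, a ubiquitin ligase of the TNF receptor complex, reached 68.5 and 68.6 CPM in Nynrin CKO 1 and 2 but 30.0 and 28.7 CPM in Nynrin CKO 3 and 4, with controls between at 43.3 to 56.7 CPM. Gbp5, an interferon-induced GTPase, was at 23.3 and 24.9 CPM against 10.6 and 8.05 CPM, with controls at 8.27 to 13.6 CPM. These genes were chosen after their values were seen, and the labels do not say what the pairs of Nynrin CKO libraries share. The pairs were also the closest libraries of the table, with a chi-square per degree of freedom of 21.7 for Nynrin CKO 1 and 2 and 21.6 for Nynrin CKO 3 and 4, against 35.7 or more between controls.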
